A study of Mus musculus with 16 samples.

Results

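A set of 10 genes of liver secretory and oncofetal character was followed on the arrays of a mouse hepatoma experiment, namely Afp, Alb, Rbp4, Ttr, Apoa1, Apoa2, Apob, Ahsg, Apoh and Gpc3. They were picked by name, as transcripts a hepatoma can be expected to carry, and each probe of theirs was found through the RefSeq identifier in the scanner files. All 10 genes had a probe, out of 16535 genes named on the array, and the 10 genes had 12 probes of 41174. Of the 10 genes, 7 had a probe well above background on enough arrays and entered the tests among 12298 genes (Afp, Alb, Rbp4, Apoa1, Apob, Gpc3 and Ahsg). The other 3 genes (Ttr, Apoa2 and Apoh) did not and are given as signals only.

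Each of 16 Agilent arrays carried 1 sample in Cy5 and blood RNA of untreated female C57Bl/6 mice in Cy3, without a dye swap. In 8 cases the Cy5 sample was a density gradient fraction of tumours, enriched in infiltrating inflammatory cells and called the infiltrating fraction below. The other 8 were whole blood of tumour-bearing mice. Both came from female mice, C57Bl/6 in the strain field and athymic in the treatment text, 10 days after subcutaneous inoculation of Hepa1-6 cells. Hepa1-6 is an established mouse hepatoma line, so these tumours grow outside the liver and come from 1 line. The samples of both materials are numbered 889, 890, 891, 893, 894, 896, 897 and 898, and separate RNA kits served tumour fraction and blood. Slides 1 and 2 held 4 fraction arrays each and slides 3 and 4 held 4 blood arrays each, so slide and material cannot be told apart between the groups.

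Hepatocytes secrete most proteins of the plasma, among them albumin (Alb), the transport proteins transthyretin (Ttr) and retinol binding protein (Rbp4), fetuin-A (Ahsg), beta-2-glycoprotein I (Apoh) and the apolipoproteins of lipid particles. Alpha-fetoprotein (Afp) is the albumin relative of fetal liver, is silenced after birth and returns in many liver cancers, where its level in serum is used as a marker. Glypican-3 (Gpc3), a heparan sulphate proteoglycan anchored to the cell surface, follows a similar fetal and tumour pattern. Transcription factors such as HNF4A, the FOXA proteins and C/EBP act on the promoters of many of these genes.

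Afp, Alb and Rbp4 carried the results below, and the start regions of these 3 genes are therefore shown. Each sequence runs from 250 bases before to 50 bases after a transcription start in RefSeq, build GRCm38.p6, and is written 5′ to 3′ on the gene's strand. Capitals mark TTGCNNAA, a motif of C/EBP, on either strand.
Afp, chr5:90490464-90490763, plus strand: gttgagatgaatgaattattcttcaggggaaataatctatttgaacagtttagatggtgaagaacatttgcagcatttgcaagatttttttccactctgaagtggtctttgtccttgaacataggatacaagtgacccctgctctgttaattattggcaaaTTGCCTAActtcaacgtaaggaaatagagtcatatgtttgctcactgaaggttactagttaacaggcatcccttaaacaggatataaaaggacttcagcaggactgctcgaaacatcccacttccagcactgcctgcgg
Alb, chr5:90460620-90460919, plus strand: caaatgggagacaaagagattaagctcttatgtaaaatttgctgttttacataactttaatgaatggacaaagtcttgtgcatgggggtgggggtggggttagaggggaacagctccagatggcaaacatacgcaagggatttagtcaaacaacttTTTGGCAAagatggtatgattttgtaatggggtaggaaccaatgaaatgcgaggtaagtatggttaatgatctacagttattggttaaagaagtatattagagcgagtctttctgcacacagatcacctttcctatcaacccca
Rbp4, first start, chr19:38125272-38125571, minus strand: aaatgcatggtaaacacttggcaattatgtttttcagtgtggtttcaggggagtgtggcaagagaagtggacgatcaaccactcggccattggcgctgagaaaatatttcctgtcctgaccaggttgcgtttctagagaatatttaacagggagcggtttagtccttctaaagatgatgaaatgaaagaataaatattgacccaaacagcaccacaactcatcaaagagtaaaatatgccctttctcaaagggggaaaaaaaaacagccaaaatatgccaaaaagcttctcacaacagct
Rbp4, second start, chr19:38124762-38125061, minus strand: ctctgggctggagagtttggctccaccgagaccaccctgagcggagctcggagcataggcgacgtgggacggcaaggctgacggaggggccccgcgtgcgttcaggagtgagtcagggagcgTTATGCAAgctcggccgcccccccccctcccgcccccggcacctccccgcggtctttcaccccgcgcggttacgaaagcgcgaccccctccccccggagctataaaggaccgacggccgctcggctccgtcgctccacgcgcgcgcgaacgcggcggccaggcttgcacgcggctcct
TTGCNNAA, read on both strands, occurred 1 time in the Afp window, at position -89 from the start, 1 time in the Alb window, at -94, and 1 time in the second Rbp4 window, at -128. The first Rbp4 window did not hold it. Among 32851 RefSeq promoter windows of 300 bases, 10.8% held TTGCNNAA. The core of the TATA box, TATAAA, stood in the Afp window at -7 and in the second Rbp4 window at -28, and 13.6% of all windows held this motif. TGTTTAC, a motif of the FOXA proteins, stood in the first Rbp4 window at -241, and 3.65% of all windows held it. No match overlapped another in these windows. The motif in capitals was chosen after the matches were seen, and the matches describe the printed windows only.

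Afp was bright in the infiltrating fraction and dim in blood. Levels here are net signals, the median pixel intensity of a spot minus its local background, in scanner units, and they are compared for 1 probe at a time, since probes differ in efficiency. Net Cy5 of Afp ran from 67254 through a median of 235755 to 342713 units in the 8 fraction samples. In blood of tumour-bearing mice it ran from 35.65 through 60.15 to 79.5 units, above background on 8 of 8 arrays. Fraction sample 889 was the lowest and 898 the highest, and the groups did not overlap. Over all probes the 75th percentile of net Cy5 in the fraction was likewise lowest in 889, at 239 units, and highest in 898, at 1126 units. Afp sits on the array as 10 spots, whose net Cy5 had a coefficient of variation of 3.79% to 17.3% within an array.

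Cy3, which carried untreated blood RNA on every array, was low for Afp on the blood arrays, at 118 to 149.6 units (median 128), and well above background on all 8 of them. On the fraction arrays Cy3 of the same Afp spots read 2235 to 4883 units (median 3075). The ratio therefore divides by a Cy3 signal that itself differed between the arrays of both materials. The mean log2 ratio of fraction over untreated blood was 2.95 ± 0.09 (SE, n = 8 arrays), with a range of 2.62 to 3.42, and limma gave an adjusted p of 2.0e-09. In blood of tumour-bearing mice the log2 ratio to untreated blood averaged -0.24 ± 0.04 (SE, n = 8 arrays; limma, adjusted p = 0.000108), under the 2-fold limit for a call. It was -0.71 with median centring, -0.69 with spike-in centring, -0.45 with subtraction and -0.48 in the deposited ratios, not called in any of these.

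Alb, the main protein of plasma, was bright in all fraction samples and not above background in any blood sample. Net Cy5 of Alb was between 41421 and 266831 units in the fraction (median 154217) and between -2.5 and 20 units in blood of tumour-bearing mice (median 8.25). The groups were separated without overlap, again with sample 889 lowest and 898 highest. Cy3 of Alb was 4658 to 12194 units on the fraction arrays and at most 19.5 units on the blood arrays, where no array was above background. Its mean log2 ratio of fraction over untreated blood was 1.12 ± 0.11 (SE, n = 8 arrays; limma, adjusted p = 9.0e-06). On the 4 arrays of slide 1 alone the mean was 0.95, under the 2-fold limit.

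Rbp4, which carries retinol from the liver to other tissues, had, like Alb, a signal above background in all fraction samples and in no blood sample. Its net Cy5 was 58286 to 249593 units in the fraction (median 162665) and -0.5 to 13 units in blood of tumour-bearing mice (median 6.25). Its net Cy3 was 4124 to 8357 units on the fraction arrays and 9 to 20 units on the blood arrays. No blood array was above background for Rbp4 in either dye. The mean log2 ratio of fraction over untreated blood was 1.71 ± 0.09 (SE, n = 8 arrays; limma, adjusted p = 8.8e-08), with a range of 1.17 to 2.0.

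**Figure D1:**
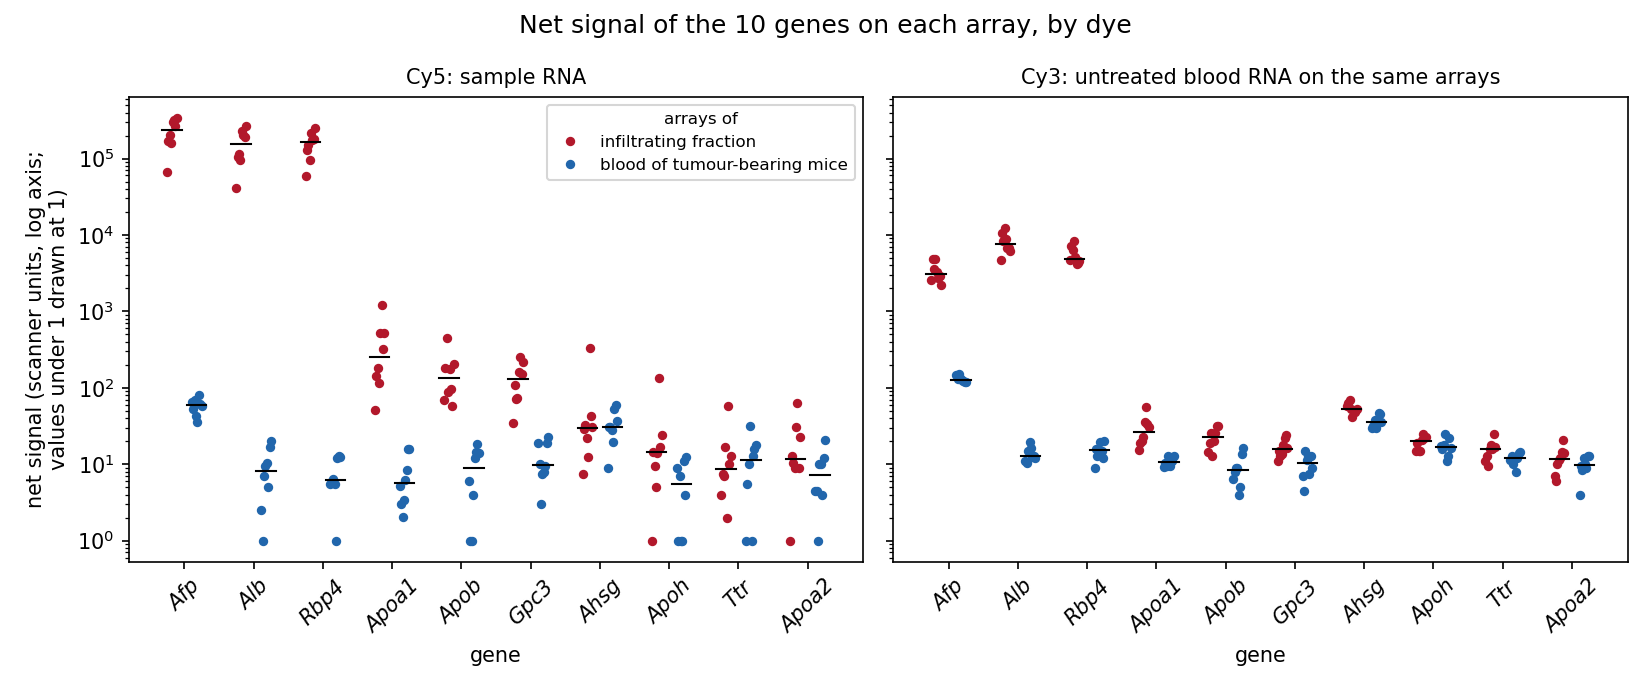
Net signal of the 10 genes on each array (vertical log axis, scanner units), Cy5 on the left and Cy3 on the right; each point is 1 array, red for the infiltrating fraction and blue for blood of tumour-bearing mice, and the bar is the median of 8. Afp, Alb and Rbp4 stand at 41421 units or more in Cy5 of every fraction array, and in Cy3 they read 2235 units or more on fraction arrays and 149.6 units or less on blood arrays, while both groups of the other genes stay under 100 units in Cy3.

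Calls required an adjusted p under 0.05 and a change of at least 2-fold. Alb, Rbp4, Apoa1, Apob and Gpc3 entered the tests only through the fraction arrays, being above background on too few blood arrays. Their calls and p-values for the fraction against either blood are therefore not independent of that filter. Afp, Alb and Rbp4 were called higher in the fraction than in untreated blood, which makes 3 of 7 tested genes, and 0 were called lower, beside 19.4% of all tested genes called in either direction and 9.31% called higher. Of the genes in blood of tumour-bearing mice, 0 of 7 were called, beside 0.748% of all tested genes (0.504% higher and 0.244% lower). Over all tested genes, the calls in blood were 62 higher and 30 lower, against 10 higher and 884 lower with median centring. By limma's adjusted p alone 3 of these 7 were under 0.05 in blood (Afp, Ahsg and Gpc3), beside 49.8% of all tested genes, with mean log2 ratios of -0.24, 0.18 and 0.13, and Gpc3 was above background on 1 of 8 blood arrays. In bulk samples, fewer cells of a type and less RNA per cell cannot be told apart.

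The 2 materials were also compared directly. For the difference of the log2 ratios, fraction minus blood of tumour-bearing mice, 3 of 7 genes were called, with 23.9% of all tested genes called (12.1% higher and 11.8% lower). The difference was 3.19 ± 0.10 for Afp, 1.13 ± 0.11 for Alb and 1.79 ± 0.10 for Rbp4 (SE, limma, adjusted p = 3.2e-15, 8.7e-08 and 2.5e-11, in this order, n = 8 arrays each). The ratios of the 2 materials share untreated blood as their denominator. In blood, Alb and Rbp4 were above background in neither dye on any array, so their blood ratios of -0.01 and -0.08 measure no level. For these 2 genes the difference and its p-value repeat the fraction ratio and are no separate test. Of all calls 1485 were higher and 1450 lower, against 7377 and 334 with median centring and 5591 and 1170 with spike-in centring. Ahsg had a difference of -0.90 ± 0.19 and was not called. Without fraction sample 896 that difference was -1.0, and without samples 897 and 898 it was -1.11, both called lower by limma.

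Cy5 alone leaves untreated blood out of the comparison. After scaling each array to its 75th percentile, Afp was higher in the fraction than in blood of tumour-bearing mice by 7.81 ± 0.13 on the log2 scale (SE, n = 8 arrays each; limma, adjusted p = 1.0e-17). Alb was at least 236-fold higher and Rbp4 at least 249.9-fold higher. These are bounds because the blood arrays were all below background for both genes, and each divides the mean of the fraction by the blood mean of, per array, the higher of its own signal and that of the dimmest probe called well above background. They hold for this scaling, and with the 75th percentile of the probes detected on all arrays they were 107-fold for Alb and 114-fold for Rbp4. Of the 7 genes, 5 were called in Cy5 (3 higher and 2 lower), beside 63.1% of all tested genes (29.8% higher and 33.3% lower), so a call by itself sets no gene apart here. The scaling moved that split: of all calls 3662 were higher and 4095 lower, against 7067 and 803 with spike-in scaling, 2590 and 1934 with quantile normalisation and 1259 and 6558 with the 75th percentile of the probes detected on all arrays. The median Cy5 difference of all tested genes was -0.04, against 1.42, 0.27 and -1.18 in these.

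The dim genes read differently before and after that scaling. The 75th percentile of net Cy5 was 239 to 1126 units on fraction arrays and 23.5 to 45.5 units on blood arrays, so a gene that is a little brighter in the fraction can be lower relative to its array. Gpc3 was such a gene. Its net Cy5 was 34.5 to 250 units in the fraction (median 130.8), highest in sample 896, and 3 to 23 units in blood of tumour-bearing mice (median 9.75), without overlap. The fraction was above background for Gpc3 on 8 of 8 arrays and blood on 1 of 8, so the blood side of a Cy5 difference is mostly background. Scaled Cy5 of Gpc3 was nevertheless lower in the fraction, by -1.24 ± 0.20 (SE; limma, adjusted p = 1.1e-05, n = 8 arrays each), and the sign turned to 0.28 under quantile normalisation, 0.23 under spike-in scaling and 0.83 with the deposited processed signals. In the ratio to untreated blood the fraction averaged a log2 of 0.32 ± 0.06 for Gpc3 (SE), with Cy3 above background on 0 of 8 arrays, and it was not called.

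Apoa1, the main protein of high density lipoprotein, gave a modest signal in all 8 fraction samples. Net Cy5 was 50.7 to 1205 units there (median 252) and 2.06 to 15.9 units in blood of tumour-bearing mice (median 5.74). All 8 fraction arrays and 0 of 8 blood arrays were above background, so the blood side of the scaled Cy5 difference below is background. Cy3 of Apoa1 was 15.4 to 55.4 units on fraction arrays and 9.30 to 12.9 units on blood arrays, which did not overlap either. Scaled Cy5 of Apoa1 differed between fraction and blood by -0.45 ± 0.26 (SE; limma, adjusted p = 0.108, n = 8 arrays each), not called, and by 1.37 with subtraction, 0.94 with quantile normalisation, 1.01 with spike-in scaling and 2.37 with the deposited processed signals. The mean log2 ratio of fraction over untreated blood was 0.37 ± 0.09 (SE, n = 8 arrays; limma, adjusted p = 0.00406) and was not called.

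Apob, the structural protein of very low and low density lipoprotein, was read by 3 probes. The probe of highest mean signal, A_52_P441070, had net Cy5 of 57 to 453 units in the fraction (median 135.5) and -4 to 18.5 units in blood of tumour-bearing mice (median 9). A further probe, A_51_P470542, ran from 45 to 336.5 units in the fraction and from -1.5 to 12 units in blood. On both probes sample 891 was the highest of the fraction and the groups did not overlap. Both were above background in Cy5 on 8 of 8 fraction arrays and 0 of 8 blood arrays. The blood side is thus background, and the scaled values, p-values and call that follow set no direction for Apob. Scaled Cy5 was lower in the fraction by both, at -0.90 ± 0.21 for A_52_P441070, not called, and -1.02 ± 0.21 for A_51_P470542, called lower (SE; limma, adjusted p = 0.000557 and 0.000173, n = 8 arrays each). By A_52_P441070 the sign turned to 0.38 with subtraction, 0.56 with quantile normalisation, 0.56 with spike-in scaling and 1.59 with the deposited processed signals. The last probe, A_51_P380650, read 8.5 to 23.5 units in the fraction and -2 to 18 units in blood, so the 3 probes of Apob disagree on whether the gene is detected. By A_52_P441070 the log2 ratio of Apob averaged 0.34 ± 0.10 (SE, n = 8 arrays; limma, adjusted p = 0.00919) and was not called.

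Ahsg overlapped between the groups. This inhibitor of mineral deposition, made in large amounts by fetal and adult liver, had net Cy5 of 7.5 to 330 units in the fraction (median 30) and 9 to 59.5 units in blood of tumour-bearing mice (median 31). Only sample 896, at 330 units, lay above the highest blood sample. Cy3 of Ahsg was 41.5 to 69 units on fraction arrays and 29.5 to 47 units on blood arrays, above background on all 16 arrays. The mean log2 ratio of fraction over untreated blood was -0.73 ± 0.17 (SE, n = 8 arrays; limma, adjusted p = 0.00381), not called. By slide it was -1.20 on slide 1, where it was called lower, and -0.25 on slide 2. Scaled Cy5 of Ahsg was lower in the fraction than in blood by -2.12 ± 0.33 (SE; limma, adjusted p = 9.5e-06, n = 8 arrays each), with 6 and 5 of 8 arrays above background, and by -0.66, uncalled, under spike-in scaling.

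Ttr, Apoa2 and Apoh stayed close to background. Ttr, the carrier of thyroxine and of the Rbp4 protein, had net Cy5 of 2 to 57.5 units in the fraction (median 8.75) and -3 to 31.5 units in blood of tumour-bearing mice (median 11.5), with 1 array above background in each. Apoa2 read 1 to 63 units in the fraction (median 11.8) and 0.5 to 21 units in blood (median 7.25). Apoh read 0 to 132.5 units in the fraction (median 14.2) and -1 to 12.5 units in blood (median 5.5). Of the fraction, 2 of 8 arrays were above background for Apoa2 and 2 of 8 for Apoh, and in blood 0 of 8 for either. In all 3 genes sample 896 was the highest of the fraction and the groups overlapped. By detection in Cy5, Afp, Alb, Rbp4, Apoa1, Apob and Gpc3 were thus above background in all 8 fraction samples, and the other 4 genes in 1 to 6 of them. Of all named genes, 10360 of 16535 were above background in Cy5 of all 8 fraction samples, so this detection by itself sets no gene apart.

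The Cy3 channel was examined in its own right, since it should hold the same kind of RNA on all 16 arrays. That Cy3 was bright for some of these genes on fraction arrays was known when they were picked, so the following is a description of size. Scaled Cy3 of Afp was higher on fraction arrays than on blood arrays by 3.45 ± 0.30 on the log2 scale (SE, n = 8 arrays each). It read 2.60 in fraction sample 897 and 2.99 in 898, against 4.28 to 5.06 in the other fraction samples. Net Cy3 of Afp was 2909 and 2235 units in 897 and 898, and 2580 to 4883 units in the others. Alb was at least 69.3-fold higher and Rbp4 at least 48.3-fold higher, because both were below background in Cy3 on all blood arrays. Ahsg, Apoa1, Apob and Gpc3 differed by -0.08, 0.04, -0.02 and -0.12, with SE of 0.09 to 0.16, and were not called. The called genes were 3 of 7, beside 6.74% of all tested genes (5.21% higher on fraction arrays and 1.53% lower). That split, 641 higher and 188 lower, was 1189 and 54 with spike-in scaling and 1742 and 2613 with the deposited processed signals.

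Cy3 on the fraction arrays went with brightness in Cy5 also beyond these genes. Of the tested genes, 2185 had Cy3 above background on no blood array, and 1404 of these had Cy5 above background on all 8 fraction arrays. Cy3 was above background on all 8 fraction arrays for 13 of 274 such genes with a mean net Cy5 under 100 units, for 216 of 860 genes between 100 and 1000 units, and for 179 of 237 genes between 1000 and 10000 units. Between 10000 and 50000 units it was so for 28 of 28 genes, and above 50000 units for 5 of 5. Those 5 genes were Igfbp1, Alb, Rbp4, Ccl24 and Rhox5, at net Cy3 of 2.94% to 5.12% of net Cy5. Alb at 5.12% and Rbp4 at 3.58% lay within the 0.349% to 12.5% seen among the genes of 10000 to 50000 units. Apoa1, Apob and Gpc3, with mean net Cy5 of 383, 166 and 134 units, had mean net Cy3 of 29.0, 22.6 and 16.6 units. What raised Cy3 on the fraction arrays was not tested.

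**Figure D2:**
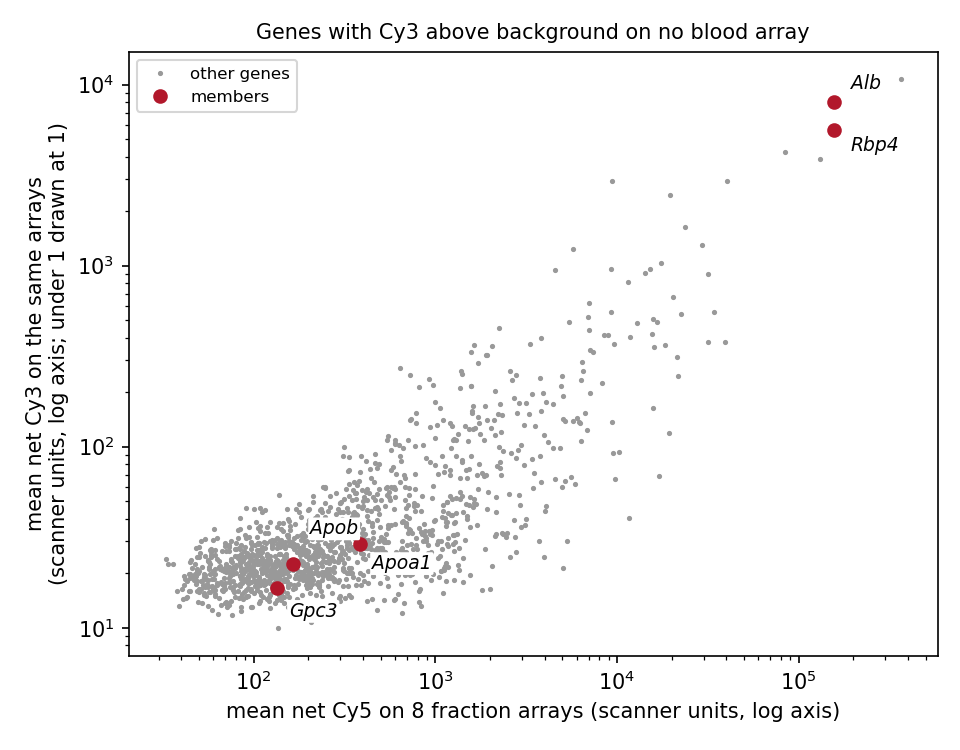
Mean net Cy3 against mean net Cy5 over the 8 fraction arrays (both log axes, scanner units) for the 1404 genes with Cy3 above background on no blood array and Cy5 above background on all fraction arrays; red points are members. Cy3 rises with Cy5, and Alb and Rbp4 lie at the bright end with Igfbp1, Ccl24 and Rhox5.

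Relative to Cy5, Cy3 differed between the 2 slides of the fraction. For Afp, net Cy3 was 1.78% to 3.84% of net Cy5 on slide 1 and 0.652% to 1.09% on slide 2. For Alb it was 7.14% to 12.6% on slide 1 and 2.30% to 3.78% on slide 2, and for Rbp4 4.33% to 8.67% and 1.81% to 2.42%. The slides did not overlap for any of the 3 genes. All 33 genes of more than 10000 units in Cy5 with Cy3 above background on no blood array had the higher percentage on slide 1, with medians of 5.38% on slide 1 and 1.86% on slide 2. The absolute Cy3 signal moved less, and for Alb it was 4658 to 12194 units on slide 1 and 6136 to 8761 units on slide 2, while its Cy5 was 41421 to 116155 units on slide 1 and 192279 to 266831 units on slide 2. Slide 1 held samples 889 to 893 and slide 2 samples 894 to 898, so slide and sample number cannot be told apart.

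**Figure D3:**
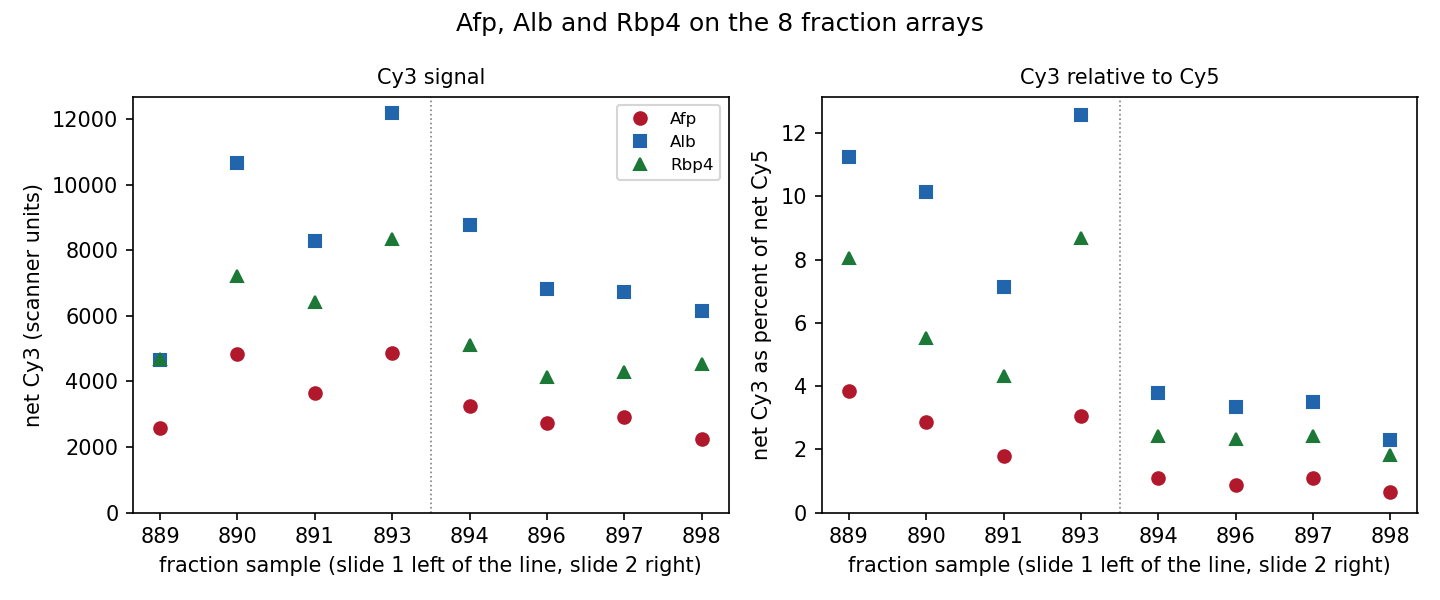
Net Cy3 in scanner units (left) and net Cy3 as percent of net Cy5 (right) of Afp, Alb and Rbp4 on each of the 8 fraction arrays, with slide 1 left of the dotted line and slide 2 right of it. The percentage is higher on every array of slide 1 than on every array of slide 2 for each of the 3 genes.

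The size of the ratio depended on how the arrays were centred. Without any normalisation, log2 of net Cy5 over net Cy3 averaged 5.98 for Afp (range 4.70 to 7.26), 4.15 for Alb (2.99 to 5.44) and 4.73 for Rbp4 (3.53 to 5.79), against the 2.95, 1.12 and 1.71 after loess, which fits the trend of the ratio with brightness and sets it to 0. With each array centred on its median, the 3 ratios were 5.20, 3.39 and 3.96 and the median of all tested genes was 1.20 in place of 0.05. Relative to that median they stood at 3.99, 2.18 and 2.76. Centring on the spike-in controls gave 4.56, 2.75 and 3.32, with a median of 0.56 over all tested genes, and the deposited ratios gave 3.14, 1.42 and 1.89, with a median of 0.17. All 3 genes stayed called higher in each of these. The split of all calls, 1145 higher and 1245 lower after loess, was 6852 and 407 with median centring and 4626 and 1127 with spike-in centring.

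For the dim genes the background step weighed more. Corrected Cy5 of probes at background was 611 and 828 units on fraction arrays 897 and 898, against 62.1 to 142 units on the other 14 arrays, so dim ratios on those 2 arrays lie close to 0. Corrected Cy3 of these probes was 468 and 252 units there, against 57.2 to 91.9 units on the other 14 arrays. Ahsg, at log2 ratios of -1.39 to -0.76 in samples 889 to 894, read -0.05 in 897 and -0.16 in 898. Apoa1 and Gpc3, at 0.23 to 0.94 and 0.33 to 0.52 in the other 6 samples, read 0.05 and 0.12 and 0.03 and 0.09 there. With plain subtraction Gpc3 was at 1.24 and Ahsg at -2.17, both called, and in the deposited ratios Apoa1 at 1.77, Apob at 1.97, Gpc3 at 2.48 and Ahsg at -3.07 were called too. Gpc3 was at -0.01 with spike-in centring, so that its direction was not settled by these data.

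**Figure D4:**
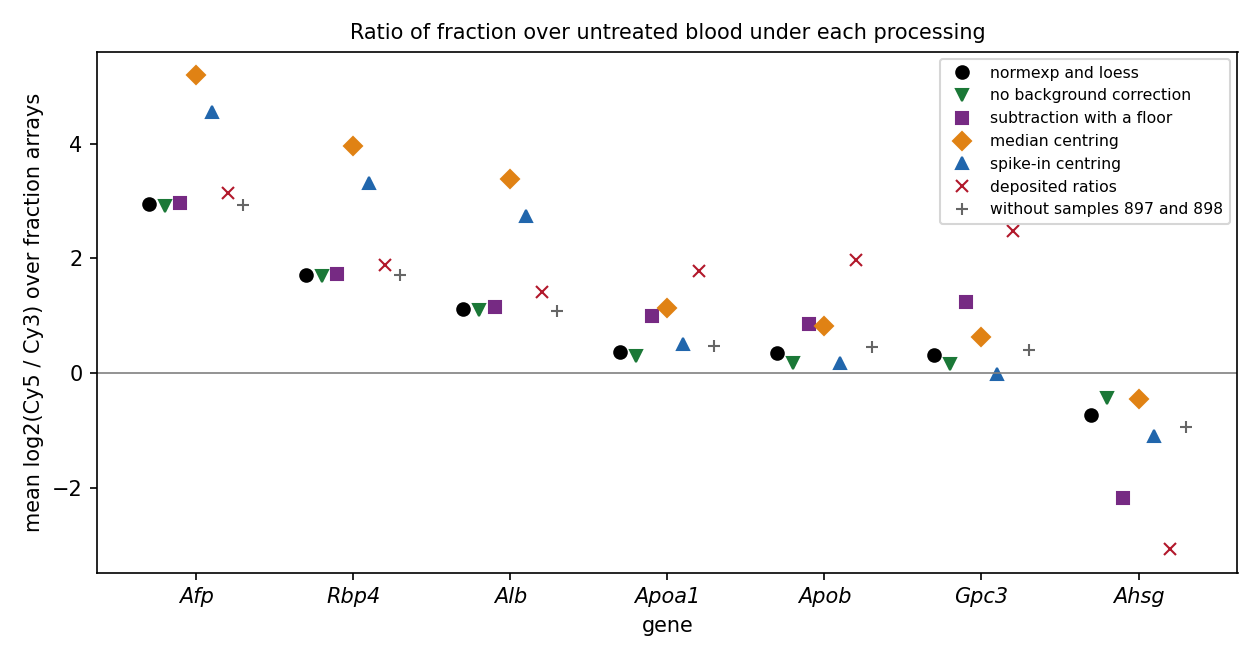
Mean log2 ratio of the infiltrating fraction over untreated blood (vertical axis) for the 7 tested genes, 1 symbol per way of processing. Afp, Rbp4 and Alb lie above 1 and Ahsg below 0 in the 7 ways drawn (fits of 1 slide alone are not drawn), and Apoa1, Apob and Gpc3 spread between -0.01 and 2.48.

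Other liver secretory genes, which are no members, were taken as a plasma protein list of 68 genes, of which 64 had a named probe and 44 were tested. In the fraction over untreated blood, 10 of 44 were called higher and 5 lower, and 29 were not called, beside 9.31% of all tested genes higher and 10.1% lower. The median log2 ratio of the list was 0.36, beside 0.05 over all tested genes. Among the genes called highest were Cfi, a protease that inactivates complement (2.60 ± 0.21), Igfbp1, an insulin-like growth factor binding protein of liver (2.0 ± 0.09), Cp, the copper-bearing ferroxidase ceruloplasmin (1.90 ± 0.13), and Fetub, fetuin-B (1.80 ± 0.15; SE, limma, adjusted p of 5.5e-08 to 3.3e-06, n = 8 arrays). Called lower were the coagulation factors F5 (-2.52 ± 0.30), F10 (-1.43 ± 0.06) and F9 (-1.04 ± 0.18), the acute phase protein Saa1 (-2.01 ± 0.22) and the haemoglobin scavenger Hp (-1.02 ± 0.12). Of these 5, with median centring F10 was at 0.71 and Hp at 0.61 and only F5 was still called lower, and the list had 25 genes higher and 1 lower. With spike-in centring F10 was at 0.07 and Hp at -0.03, and the calls of F9 and Hp were also lost without background correction (-0.71 and -0.88) and on slide 2 alone (-0.64 and -0.80). Hp was the 1 list gene called in blood of tumour-bearing mice over untreated blood, at 2.06 ± 0.06 (SE; limma, adjusted p = 4.8e-12, n = 8 arrays).

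F10 shows how the dyes part for a list gene. Net Cy5 of F10 was 1800 to 16436 units in the fraction and 104.5 to 258.5 units in blood of tumour-bearing mice, and scaled Cy5 was higher in the fraction by 1.86 ± 0.13 (SE, limma, adjusted p = 3.5e-10, n = 8 arrays each). Scaled Cy3 was higher on fraction arrays by 2.41 ± 0.18, and the ratio to untreated blood was the lower value given above. In Cy5, 18 of 44 list genes were higher in the fraction than in blood and 12 lower, beside 29.8% and 33.3% of all tested genes. In Cy3, 10 were higher on the fraction arrays, all among the 18, and 2 were lower, Itih4 at -1.08 and Saa1 at -1.45, beside 5.21% and 1.53% of all tested genes. Itih4 was chosen after its values were seen. Of the 64 genes with a probe, 22 (34.4%) were above background in Cy5 of all 8 fraction samples and of no blood sample, beside 15.2% of 16535 named genes.

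The oncofetal list of 27 genes, with 23 on the array and 18 tested, had 4 called higher and 1 lower in the fraction over untreated blood, and 13 not called, beside 9.31% of all tested genes higher and 10.1% lower. The median log2 ratio of the list was 0.15, beside 0.05 over all tested genes. Higher were Sox9, a transcription factor of bile ducts and progenitor cells (2.27 ± 0.16), Lgr5, a stem cell receptor of the Wnt pathway (2.01 ± 0.13), the tetraspanin Tspan8 (1.38 ± 0.06) and the fetal RNA binding protein Igf2bp3 (1.03 ± 0.14). The call of Igf2bp3 was lost with the mean over its probes (0.61), without background correction (0.82) and on slide 2 alone (0.75). Cd24a, a surface glycoprotein that blood cells also carry, was lower by -4.48 ± 0.07 (SE; limma, adjusted p = 4.1e-11, n = 8 arrays). Markers of B cells and of erythroid cells and platelets, 4 and 6 tested genes, were all called lower as well, with medians of -4.32 and -4.96. Their part in the Cd24a value was not tested. None of the 18 genes was called in blood of tumour-bearing mice by limma, while 8 had an adjusted p under 0.05 alone, beside 49.8% of all tested genes.

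Cell markers were read beside these genes. Of 9 hepatoma and liver cell markers, 8 were above background in all fraction samples, beside 10360 of 16535 named genes. Their summed net Cy5 was 163117 to 920317 units in the fraction and 85.4 to 206 units in blood of tumour-bearing mice. That list holds Afp, Alb, Ttr and Apoa1 themselves. Of 11 mature hepatocyte markers with a probe, 5 were above background in all fraction samples, and the defining cytochromes Cyp2e1 and Cyp1a2, with Hpd and Otc, on 0 of 8. Their sum was 7042 to 53637 units in the fraction and 136 to 313 units in blood, with Arg1, which macrophages also express, giving 6244 to 49444 units. The fraction also held leukocyte markers, at 98851 to 386588 units against 46637 to 111328 units in blood, and fibroblast markers, at 45136 to 229912 units against 72.8 to 318 units. Dcn alone gave 43856 to 212120 units of the fibroblast sum. All these sums add probes of unlike efficiency and are not scaled for the brighter fraction arrays. In scaled Cy5, 4 of 11 tested leukocyte markers were called higher in the fraction than in blood and 4 lower, beside 29.8% and 33.3% of all tested genes. Of 5 fibroblast markers, 3 were called higher and 1 lower. The label of an inflammatory cell fraction therefore stands beside bright hepatoma transcripts in all 8 samples. Which cells held Afp, Alb and Rbp4 was not tested.

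Sample 896 of the fraction had the highest net Cy5 of the 8 for 6 of the 7 dimmer genes, namely Apoa1, Gpc3, Ahsg, Apoh, Ttr and Apoa2. Ttr was above background on 1 of 8 fraction arrays, and Apoa2 and Apoh on 2 of 8 each. The share of all tested genes highest in 896 by net Cy5 was not taken. Gpc3 read 250 units in 896 and 216 units in the next sample, and Apob was highest in 891 and read 97 units in 896. Apoa1 read 1205 units in 896 and 50.7 to 527 units in the other fraction samples, Ahsg 330 units against 7.5 to 43 units, and Apoh 132.5 units against 0 to 24 units. By net Cy5 it was within the range of the others for Afp, Alb and Rbp4, at 316037, 204744 and 177170 units. This depended on the measure, since 896 had the highest log2 ratio of Afp, at 3.42 against 3.23 in the next sample. It also had the highest scaled Cy5 of Afp, at 8.62 against 8.29, and of Alb, at 8.0 against 7.91. Sample 898, highest by net Cy5 of Afp, had the lowest scaled Cy5 of Afp, at 7.54. Sample 896 had the highest log2 ratio for 24 of the 44 plasma protein genes (54.5%), beside 1576 of 12291 tested genes with a value on all 8 arrays (12.8%). In scaled Cy5, 896 was highest for 17 of 44 genes and 897 for 16 of 44, beside 13.4% and 34.4% of all tested genes. With the deposited ratios 896 was highest for 19 of 44 genes, beside 21.2% of all tested genes, and with net Cy5 over the 75th percentile for 20 of 44, beside 16.8%.

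**Figure D5:**
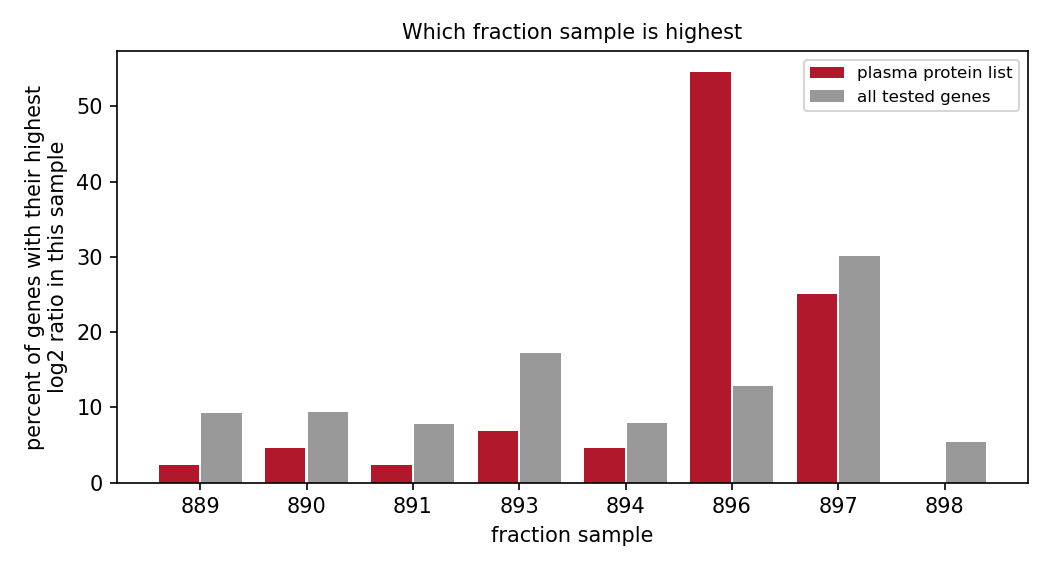
Percent of genes that have their highest log2 ratio in a given sample of the infiltrating fraction, for the 44 tested genes of the plasma protein list (red) and for all tested genes (grey). Sample 896 holds 54.5% of the list, beside 12.8% of all genes.

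The order of Afp across the fraction was set beside that of all tested genes. Among the 8 fraction samples, the tested genes whose log2 ratio was most like that of Afp were Ncl, a nucleolar protein (Pearson r = 0.95), the RNA polymerase subunit Polr2k (0.93), the mitochondrial enzyme Mdh2 (0.93), the growth factor binding protein Igfbp3 (0.93) and the signalling inhibitor Cish (0.92). Of the members, Alb had r = 0.88, Rbp4 0.71, Ahsg 0.64, Apoa1 0.47, Gpc3 0.08 and Apob -0.56. These are descriptions over 8 arrays that share 2 slides. With each slide's mean removed, r was 0.88 to 0.95 for the 5 genes, 0.83 for Alb, 0.62 for Rbp4, 0.51 for Apoa1, 0.38 for Gpc3, 0.24 for Ahsg and -0.11 for Apob.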

How the data were processed

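Spot and local background brightness were deposited as median pixel intensity in Cy5 and Cy3. Agilent Feature Extraction 10.5.1.1 wrote them per the file headers, and version 9.1.3.1 is named in the submitters' processing notes. The same deposited files hold a log10 ratio of Cy5 over Cy3, background-subtracted and dye-normalised by that program per the file headers, and the deposited value table differed from it by 0. Other columns used are the deposited flags for outlier, saturated and well-above-background spots. Direction follows the dyes in the labels.

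From there, outlier-flagged spots were left out, background was corrected with normexp (offset 50), ratios were normalised by loess within each array with control spots at weight 0, and single channels were set to the array's 75th percentile, in limma 3.58.1 (R 4.3.3, data.table version 1.17.8). Figures were drawn with matplotlib 3.10.9 under Python 3.11.15. Median signals were used, as the files read here hold no mean signals. No spot was saturated. In Cy5, 51.1% to 65.8% of probes were well above background on fraction arrays and 24.8% to 36.3% on blood arrays, and in Cy3 41.0% to 51.0%. The number of arrays limits the precision. Of 41174 probes, 23374 had 1 symbol in RefSeq (GRCm38.p6) and 17800 had none. Tests took probes well above background in Cy5 on 4 or more of the 8 arrays of a group, or in Cy3 on 8 or more of 16. The probe of highest mean intensity stood for its gene.

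Ratios were tested against 0 within each group, and the groups against each other in ratio, Cy5 and Cy3, with lmFit and eBayes, Benjamini-Hochberg adjustment over all tested probes and a 2-fold limit; the steps were tested on simulated data. Untreated blood is 1 control sample, so its own spread is left out, and dye bias stays in a ratio. Nothing states that a number marks a separate animal, so p-values measure the spread between these samples, which may be technical. Sample numbers shared by the groups were not shown to pair them: deviations of same-numbered samples correlated at -0.17 to 0.20, over 0.1 in 4 of 8 pairs, and pairing was taken only where all pairs were over 0.1. Ratios correlated at -0.30 to -0.07 between fraction and blood arrays over all probes. Probes at background were raised by normexp on fraction arrays 897 and 898.

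Members, lists and tests were chosen with earlier results of these data known. The text names all members, of each list up to 5 genes called higher and 5 lower in the fraction by size, and the 5 genes most like Afp. Alternatives were the background step, centring, the filter, the probe rule, slide as a block or alone, the replicate block, the fold limit and leaving out samples; the percentile over probes detected on all arrays and the fits without samples 897 and 898 were chosen after seeing the data. The Ttr start region is not shown, and a few listed genes are left out of the text.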

Additional observations from a re-analysis of the deposited data

Results flagged for a closer look

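Single samples stood far from the rest of their group in 7 cases, where the gap to the next sample took a larger part of the group's range than Dixon's 95% value allows; chance alone flags about 1 in 20 groups. Of these, 5 were the highest values of fraction sample 896: Ttr at a net Cy5 of 57.5 units (next 17), Apoa1 at 1205 units (next 527), Ahsg at 330 units (next 43), Apoh at 132.5 units (next 24), and the log2 ratio of Ttr at 0.37 (next 0.07). Apob reached 453 units in fraction sample 891 (next 205). In blood of tumour-bearing mice, the log2 ratio of Ttr was 0.66 in sample 893 (next 0.08). Ttr and Apoh were each above background in Cy5 on at most 2 fraction arrays, and Ttr on 1 of 8 blood arrays. Ttr of sample 896 is counted both by net Cy5 and by log2 ratio. Net Cy5, net Cy3 and the log2 ratio were screened in each group for genes above background on any array. The number of groups screened is not given, so the 7 cases cannot be set against the rate of 1 in 20.

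The effect against untreated blood differed between the fraction and blood of tumour-bearing mice for Afp by 3.19, for Alb by 1.13 and for Rbp4 by 1.79 on the log2 scale, each by limma's test of the difference.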

How the results depend on the processing

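Afp, Alb and Rbp4 kept the direction of every called ratio, Cy5 and Cy3 difference in all alternatives run, and lost a call in 1, Alb at 0.95 on slide 1 alone. The members called moved beyond 1.5 times as follows. In the fraction over untreated blood they were 3, against 5 with subtraction, 7 with the deposited ratios and 7 by adjusted p alone. In blood over untreated blood they were 0, against 3 by adjusted p alone. In the difference of ratios they were 3, against 7 with the deposited ratios and 7 by adjusted p alone, and in Cy5 they were 5, against 8 without the filter on dim probes. With 1 sample left out they were 3 to 3, 0 to 0, 3 to 4, 5 to 6 in Cy5 and 3 to 3 in Cy3. The sign of Gpc3 turned to -0.0089 in the fraction ratio with spike-in centring, and in Cy5 to 0.28 with quantile normalisation, 0.23 with spike-in scaling and 0.83 with processed signals. Ahsg in Cy3 turned to 0.28 with spike-in scaling. The causes were not tested.

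The replicate block, in which sample numbers enter the fit although they were not shown to pair the groups, left the difference at 3.19 for Afp with a limma adjusted p of 1.8e-10 and changed no member's call; 2 of 8 samples correlated best with their own number. Over all tested genes, calls in the fraction ratio were 1882 to 9398 across alternatives, against 2390. They were 53 to 6128 in blood, against 92, up to 9211 in the difference of ratios, against 2935, 7757 in Cy5 against 4524 with quantile normalisation and 11994 without the filter, and 829 in Cy3 against 1844 with subtraction, 4355 with processed signals and 4433 by adjusted p alone. Calls in the plasma protein list were 13 to 38 in the fraction ratio, against 15, and in the oncofetal list 4 to 13, against 5. Plasma protein calls were 30 in Cy5, against 50 without the filter, and 12 in Cy3, against 34 with processed signals. Signals near background carry no order, which limits Ttr, Apoa2 and Apoh most.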
